A study of Mus musculus with 36 samples.

Results

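This comparison set the 3 libraries of day 7 against the 3 libraries of day 3, chosen by the time point in their labels, out of 36 libraries that followed mouse HM1 embryonic stem cells through a motor neuron differentiation at 12 time points. HM1 is an established mouse embryonic stem cell line, and all 6 libraries come from it. Both groups had the same history: feeder cells were removed, the cells were plated in N2B27, a serum-free medium, with bFGF, a fibroblast growth factor, and on the last day before day 0 they also received CHIR99021, which activates Wnt signalling, SB431542, which blocks activin and Nodal receptors, and DMH1, which blocks BMP receptors. These steps lead to neuromesodermal progenitors, caudal embryonic cells with a fate in spinal cord or in paraxial mesoderm. From day 0 on, both groups stood in 100 nM retinoic acid (RA), a signal made from vitamin A that gives neural tissue hindbrain and spinal identity, and 500 nM SAG, a Smoothened agonist that turns on Hedgehog signalling, with a daily change of medium. The day 3 cultures had thus spent 3 days and the day 7 cultures 7 days in RA and SAG, and time in culture is the labelled difference between them. Polyadenylated RNA of whole cultures was sequenced, and the labels describe all 6 samples as neural progenitor cells derived from embryonic stem cells. A culture of the same age without RA or SAG was not analysed here.

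In the ventral spinal cord, progenitors that express Olig2 first make motor neurons and later make oligodendrocyte precursors. Progenitors leave the cell cycle under proneural factors such as Neurog2, Notch signalling keeps their neighbours dividing, and new motor neurons switch on Isl1, Lhx3 and Mnx1. When neurogenesis ends, the remaining progenitors take on glial traits with Sox9 and the nuclear factor I (NFI) proteins, while floor plate cells at the ventral midline go on making Sonic hedgehog and the neighbouring domain makes V3 interneurons.

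Library totals of the 6 samples ran from 26950153 to 33570760 expected counts, and 17990 genes were tested. Mitochondrial genes took 1.33% to 1.43% of the counts at day 3 and 1.74% to 1.83% at day 7, and whether this difference bears on other genes was not tested. The 3 samples of each day are labelled biological replicates, but the labels leave unsaid whether each was a culture of its own. The p-values therefore rest on the spread among these libraries, part of which may be technical. Levels are given in TPM, an abundance corrected for transcript length and library total, as mean ± SD of 3 libraries (n = 3 on each day throughout), or for the 3 libraries in turn, in the order of replicates 1, 2 and 3. Changes are log2 fold changes of day 7 against day 3 ± an approximate standard error from edgeR's quasi-likelihood test, fitted to the expected counts, and a gene was called at a Benjamini-Hochberg adjusted p under 0.05. Since whole cultures were sequenced, fewer cells of a type and less RNA per cell cannot be told apart.

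Of all genes tested, 13012 (72.3%) were called, 6515 of them (36.2% of those tested) higher and 6497 (36.1%) lower at day 7. On the scale of log2(TPM + 1) with limma the split was 7713 higher and 4735 lower. The median log2 fold change of all genes tested was 0.10 on that scale and -0.01 in the count fit, so changes on the 2 scales are read relative to these medians. At least 2-fold changes were called in 4872 genes (27.1%), 2974 (16.5%) upward and 1898 (10.6%) downward, so among large changes the rises outnumbered the falls. Counts scaled to library size (CPM) of the 2 days did not overlap for 76.5% of genes. With this much of the transcriptome called, a called gene is the common case, and the gene groups below are read by how many members moved in each direction and by their median beside that of all genes. Counts over a gene list cover the members that passed the filter on low counts, which looks at all time points.

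**Figure D1:**
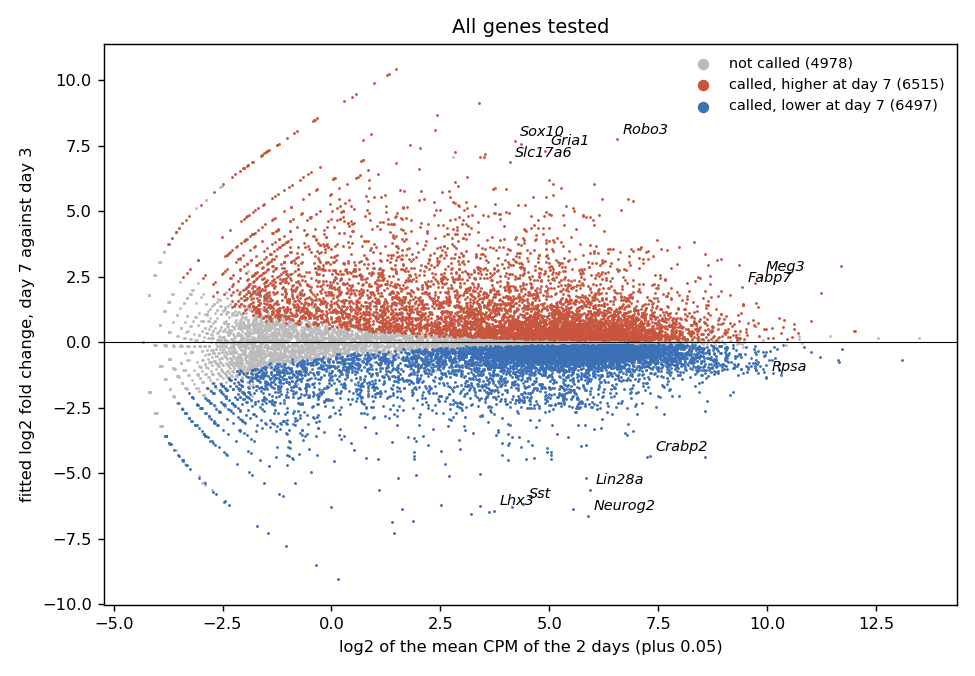
Fitted log2 fold change (vertical axis) against mean abundance (log2 of CPM, horizontal axis) for the 17990 genes tested, with red points called higher at day 7, blue points called lower and grey points not called. Changes of more than 5 on the log2 scale occurred in both directions, with Sox10, Robo3 and Gria1 among the labelled rises and Neurog2, Lhx3 and Lin28a among the labelled falls.

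The largest falls among genes with at least 10 CPM on the higher day were Neurog2, Sp8, Lhx3, Lhx4, Nkx2-9, Isl2, Cldn3, Sst, Lin28a and Fndc3c1, so regulators of motor neuron formation and ventral patterning filled 5 of these 10 places (Neurog2, Lhx3, Lhx4, Nkx2-9 and Isl2). The largest rises were Neurod2, Pdyn, Grm7, Robo3, Sox10, Gria1, Bcas1, Olig3, Csmd1 and Fhad1. They include the oligodendrocyte regulator Sox10, the glutamate receptor genes Gria1 and Grm7, the opioid peptide precursor Pdyn and the guidance receptor Robo3. Neurod2, Pdyn and Grm7 had only 1 to 3 counts at day 3, so their size is given as a ratio of summed counts with a 95% interval for counting error: 642 (219 to 3114) for Neurod2, 492 (136 to 4070) for Pdyn and 315 (107 to 1529) for Grm7. Olig3, a bHLH factor of the dorsal spinal cord, rose from 0.143 ± 0.085 to 23.5 ± 1.36 TPM (log2 fold change 7.19), and Csmd1, a large membrane protein of neurons, from 0.0633 ± 0.0153 to 4.45 ± 0.105 TPM (7.07). Fhad1, a forkhead-associated domain protein, went from 0.21 ± 0.0755 to 28.4 ± 6.18 TPM (7.07). On the falling side, Cldn3, a tight junction protein of epithelia, dropped from 17.3 ± 2.68 to 0.257 ± 0.00577 TPM (-6.20), and Fndc3c1, a fibronectin type III domain protein, from 53.2 ± 1.22 to 1.76 ± 0.15 TPM (-5.18).

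The motor neuron genes Mnx1, Lhx3, Isl1 and Slc18a3 were far higher at day 3 than at day 7, while the motor neuron list as a whole was mixed. Mnx1 (chr5:29473034-29478470, minus strand, GRCm38), the homeobox gene that marks somatic motor neurons, measured 29.6, 25.9 and 30.7 TPM in the day 3 libraries and 2.84, 2.87 and 2.2 TPM in the day 7 libraries (log2 fold change -3.63 ± 0.09, adjusted p = 1.89e-26). Lhx3 (chr2:26200212-26208289, minus strand, GRCm38), its LIM-homeobox partner in motor neuron specification, measured 24.8, 23.1 and 29.2 TPM and then 0.21, 0.25 and 0.45 TPM (log2 fold change -6.44 ± 0.15, adjusted p = 2.6e-27). Every day 3 library lay far above every day 7 library for both genes. Isl1 (chr13:116298281-116309689, minus strand, GRCm38), the LIM-homeobox factor that binds with Lhx3, fell from 67.2, 67 and 60.6 to 2.81, 4.38 and 3.51 TPM (log2 fold change -4.44 ± 0.12, adjusted p = 6.85e-26), and the related Isl2 and Lhx4 fell still further, to 0.317 ± 0.18 and 0.517 ± 0.247 TPM from 24.4 ± 3.75 and 42.1 ± 0.565 TPM. The cholinergic genes followed: Slc18a3, the vesicular acetylcholine transporter, measured 82.6, 80.8 and 87.3 TPM at day 3 and 5.81, 6.49 and 6.35 TPM at day 7 (log2 fold change -3.92 ± 0.08, adjusted p = 2.48e-29), and Chat, choline acetyltransferase, which lies at the same locus, went from 9.77 ± 1.12 to 1.2 ± 0.208 TPM (-3.20). Slc5a7, the choline transporter, did not pass the test and stayed low, at 1.03 ± 0.0153 and 1.23 ± 0.19 TPM. Of the 23 genes of the somatic motor neuron list, 13 fell and 7 rose, with a median log2 fold change of -1.59. All 13 falls and 4 of the rises were at least 2-fold. The list's summed level went from 608 to 635 TPM at day 3 to 414 to 432 TPM at day 7. Lhx1, a marker of motor neurons of the lateral motor column, and Mme, a membrane peptidase, did not pass the test (-0.23 and 0.10), but Lhx1 was called lower without day 3 replicate 2 (-0.32, adjusted p = 0.0193 in edgeR). Visceral and hindbrain motor neuron genes moved the same way in part: of 8 tested genes 4 fell and 2 rose, and the paired-like homeobox gene Phox2a fell from 39.1 ± 5.72 to 2.96 ± 0.502 TPM.

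The falls of Mnx1 and Slc18a3 took several days. Mnx1 averaged 28.7, 24.4, 22.8, 12.6, 3.93 and 2.64 TPM at days 3, 3.5, 4, 5, 6 and 7, and Slc18a3 averaged 83.6, 84.5, 71.8, 41.4, 9.21 and 6.22 TPM at the same days. Day 5 libraries, compared with day 3, had 56.0% of all genes called, and day 7 libraries compared with day 5 had 58.3%. Mnx1 passed in both intervals, with a log2 fold change of -1.28 up to day 5 and -2.35 after it. Neurog2 fell by more in the first interval (-4.79) than in the second (-1.84), with a mean of 3.81 TPM at day 5.

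**Figure D2:**
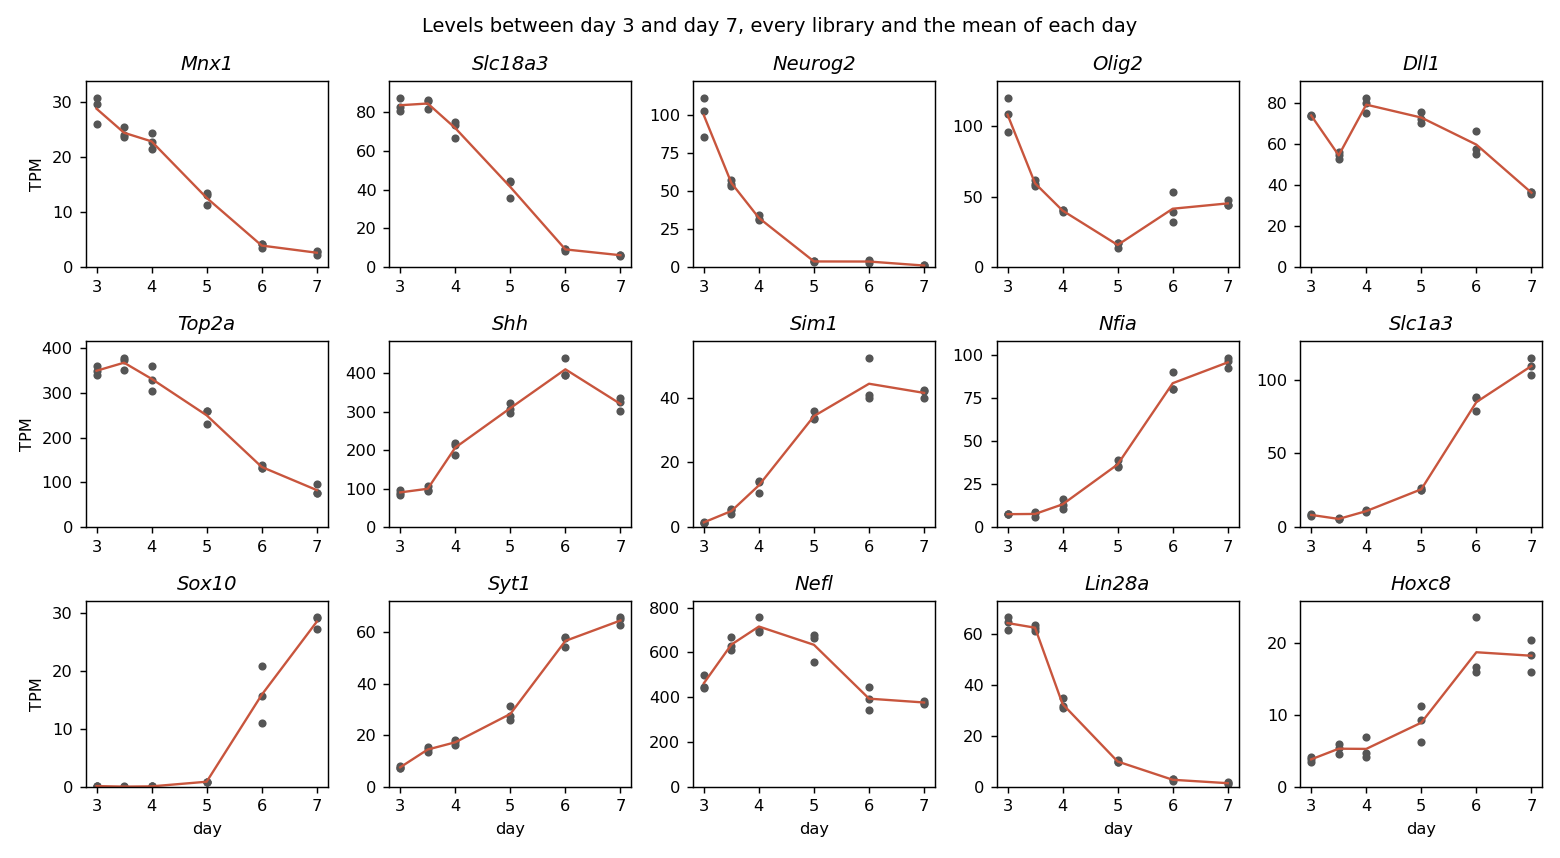
Level in TPM (vertical axis, linear, from 0) against day in RA and SAG (horizontal axis) for 15 genes, with a point for each library and a line through the mean of each day. Mnx1, Slc18a3, Neurog2 and Lin28a only went down in mean level after day 3.5, Nfia, Slc1a3, Sox10 and Syt1 had their highest mean at day 7, and Olig2 had its lowest mean, 15.9 TPM, at day 5.

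Progenitor domains shifted. Olig2 (chr16:91225457-91228677, plus strand, GRCm38), the bHLH factor that defines the motor neuron progenitor domain, measured 109, 95.9 and 120.2 TPM at day 3 and 47.6, 44.1 and 44.4 TPM at day 7 (log2 fold change -1.43 ± 0.11, adjusted p = 4.38e-14). All day 7 values were below all day 3 values, yet the course was not a plain decline: the mean was 15.9 TPM at day 5, and from there to day 7 Olig2 rose again, by 1.43 on the log2 scale (adjusted p = 2.6e-12). Nkx6-1, a homeobox factor shared by the ventral domains, fell from 187 ± 5.18 to 69.3 ± 2.45 TPM. Pax6, a progenitor gene, fell from 7.92 ± 1.35 to 1.05 ± 0.267 TPM, and Irx3, the dorsal neighbour of Olig2, from 22.4 ± 1.03 to 4.04 ± 0.231 TPM. Nkx2-2, the homeobox factor of the domain next to the floor plate, moved the other way, from 79.5, 79.9 and 85.2 to 203, 197 and 209 TPM (log2 fold change 1.02 ± 0.06, adjusted p = 2.6e-17), while its relative Nkx2-9 fell from 53, 54.4 and 54.2 to 0.7, 0.58 and 1.04 TPM (-6.28). Thus, within the Nkx2 pair of the same domain, every library of day 7 was above day 3 for the one gene and below it for the other. Of 13 ventral domain genes 8 fell and 2 rose (median -1.45); Olig1, which did not pass, stood at 28.9 ± 3.06 and 29.9 ± 0.782 TPM.

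Proneural genes fell as a group. Of 27 tested proneural and delamination genes 22 fell and 4 rose, with a median of -1.04. Neurog2 (chr3:127633135-127635631, plus strand, GRCm38), the bHLH factor that drives motor neuron progenitors out of the cycle, measured 102, 85.2 and 111 TPM at day 3 and 1.2, 0.98 and 1.2 TPM at day 7 (log2 fold change -6.63 ± 0.15, adjusted p = 7.72e-28). That was the largest fall among genes of at least 10 CPM, and no day 7 library came near a day 3 library. Neurog1 fell from 23.7 ± 0.501 to 0.807 ± 0.357 TPM, Neurod4 from 53.1 ± 1.67 to 11 ± 0.804 TPM and Nhlh2 from 92.5 ± 1.44 to 19.2 ± 0.962 TPM, all bHLH genes of newborn neurons. Dll1, the Notch ligand of neuron precursors, fell from 73.7, 73.7 and 74.2 to 36.6, 36.6 and 35.6 TPM (log2 fold change -1.15 ± 0.05, adjusted p = 6.1e-21), but it was still at 72.8 TPM at day 5. Among the exceptions Neurog3, a proneural factor of the V3 domain, rose from 11 ± 2.98 to 57.4 ± 2.27 TPM (2.21) and Cbfa2t3, a corepressor found in young neurons, from 6.68 ± 0.195 to 47.1 ± 2.68 TPM (2.80). Neurog3 had a mean of 178 TPM at day 5 and fell from there to day 7 (log2 fold change -1.71, edgeR adjusted p = 1.12e-15).

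Of 13 Notch receptors and targets, 9 fell and 1 rose. The effector Hes5 fell from 80.6, 75.7 and 92.1 to 12.6, 13.4 and 9.72 TPM (log2 fold change -2.96 ± 0.12, adjusted p = 2.31e-21) and Nrarp, a feedback regulator that Notch induces, from 100.0 ± 4.34 to 26.4 ± 1.15 TPM (-2.09). Notch1 itself fell less, from 62.4 ± 3.21 to 37.1 ± 0.438 TPM (-0.93). Among the others Hey1 and Notch2 did not pass (0.05 and 0.09), though limma called Hey1 higher on the log2(TPM + 1) scale (0.23, adjusted p = 0.00513). The list's median of -0.18 became 0.00 on the log2(TPM + 1) scale, so no shared direction can be given for the list beyond these members.

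General progenitor genes split. Sox2 (chr3:34650405-34652461, plus strand, GRCm38), the core factor of neural progenitors and the check of the labelled cell type, was present in all libraries, at 156, 155 and 148 TPM at day 3 and 179, 176 and 167 TPM at day 7, and did not pass the test (log2 fold change 0.01 ± 0.05, adjusted p = 0.828). On the log2(TPM + 1) scale, where the median gene also lay higher, limma called it (0.18, adjusted p = 0.00437). Its relative Sox3 fell from 108 ± 6.86 to 12.2 ± 0.225 TPM (-3.32), whereas Ptn, a secreted growth factor of radial glia, rose from 3.83 ± 0.746 to 38.2 ± 2.07 TPM (3.16). Of 20 tested genes of this list 9 rose and 8 fell, with a median of 0.00. The libraries of both days thus held Sox2, while the progenitor genes Sox3, Pax6 and Hes5 fell and Ptn rose. The summed level of the list went up, from 3287 to 3422 TPM at day 3 to 4207 to 4438 TPM at day 7. Libraries of both days also held transcripts of neurons (Tubb3) and of radial glia (Fabp7), and the motor neuron genes Mnx1 and Lhx3 were higher at day 3.

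**Figure D3:**
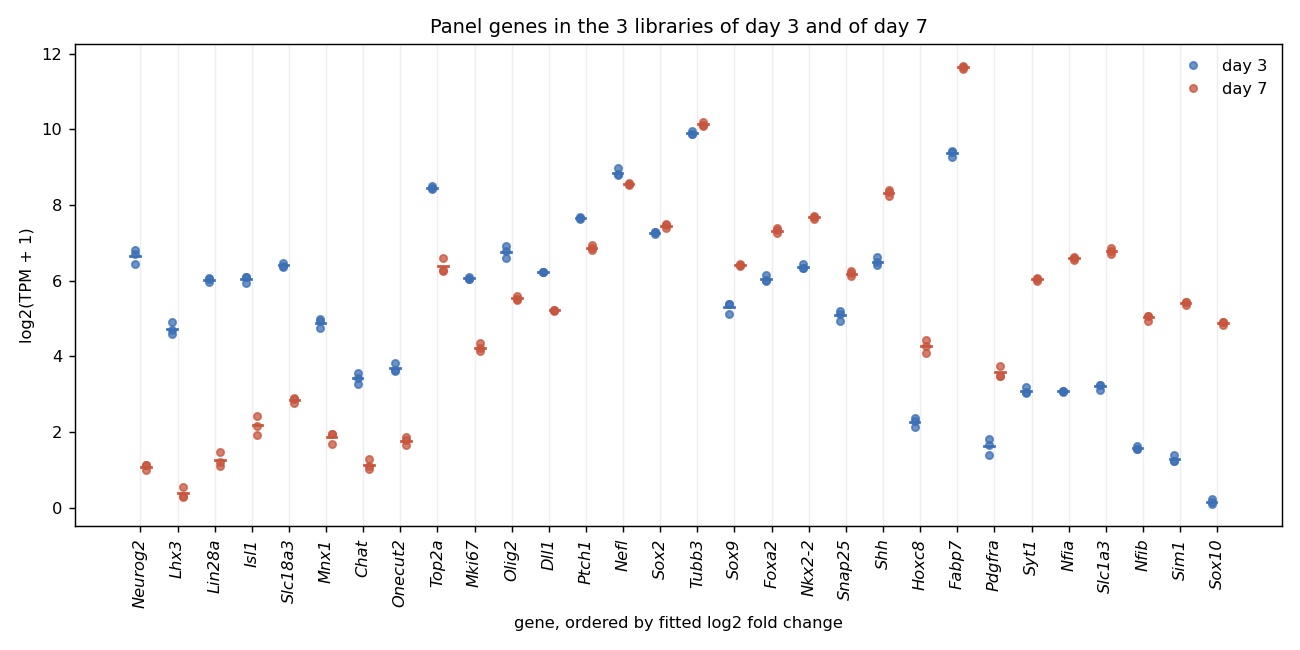
Level of 30 panel genes on the log2(TPM + 1) scale (vertical axis), ordered from the largest fall to the largest rise, with blue points for the 3 libraries of day 3, red points for the 3 libraries of day 7 and a bar at each mean. The 3 libraries of a day lie close together; motor neuron and proneural genes fill the left side, glial genes and Sim1 the right, and Sox2 and Tubb3 sit between them with the day means close together.

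The replication and mitosis lists fell without exception. All 28 DNA replication genes (median -1.94) and all 28 mitosis genes (median -2.14) were lower at day 7, each by at least 2-fold. Mki67, the proliferation antigen Ki-67, measured 64.8, 64.5 and 67.8 TPM at day 3 and 17.7, 16.5 and 19.3 TPM at day 7 (log2 fold change -2.05 ± 0.09, adjusted p = 1.51e-20). Top2a, the topoisomerase of condensing chromosomes, measured 349, 340.5 and 359.9 TPM and then 77, 75.8 and 95.3 TPM (log2 fold change -2.23 ± 0.06, adjusted p = 2.5e-25). The days did not overlap for either gene, and the highest day 7 value of both was in the same library, replicate 3. Ccnb1, the mitotic cyclin, fell from 179 ± 4.82 to 40.7 ± 5.11 TPM and Aurkb, the kinase of the chromosomal passenger complex, from 99 ± 1.76 to 22.1 ± 3.66 TPM. In the replication list, Cdt1 and Orc1, which license origins, fell from 78.4 ± 1.03 and 14.1 ± 0.854 TPM to 13.8 ± 0.815 and 2.14 ± 0.11 TPM, and Rrm2, the ribonucleotide reductase subunit that supplies deoxynucleotides, from 191 ± 8.14 to 40.6 ± 5.34 TPM. Summed over each list, replication genes took 2650.0 to 2713 TPM at day 3 and 708 to 824 TPM at day 7, and mitosis genes 2645 to 2713 and then 638 to 777 TPM. Of 14 G1 cyclins and Cdk inhibitors 10 fell and 3 rose, led by Ccnd1, the D cyclin that growth factors induce, which fell from 50.4 ± 6.68 to 6.44 ± 0.108 TPM (-3.16). Cdkn1a, which encodes the Cdk inhibitor p21, also fell, from 228 ± 4.72 to 85.9 ± 1.32 TPM (-1.58), and 12 of 16 p53 target genes fell with 2 rising, but Gtse1 of that list is itself a gene of dividing cells.

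Since replication and mitosis genes moved together, their promoters are shown for members of each list, as the RefSeq sequence on GRCm38.p6 from 170 bases before to 30 bases after the start. The 3 mitosis promoters are those of Cenpa, the centromeric histone H3 variant (chr5:30666716-30666915, plus strand), Cdc20, the activator of the anaphase-promoting complex (chr4:118437314-118437513, minus strand), and Ube2c, its ubiquitin-conjugating enzyme (chr2:164769759-164769958, plus strand). Capitals mark each match to TTTGAA (the cell cycle homology region, CHR) and to CCAAT, on either strand, so the reverse complement of a motif is also in capitals.
Cenpa: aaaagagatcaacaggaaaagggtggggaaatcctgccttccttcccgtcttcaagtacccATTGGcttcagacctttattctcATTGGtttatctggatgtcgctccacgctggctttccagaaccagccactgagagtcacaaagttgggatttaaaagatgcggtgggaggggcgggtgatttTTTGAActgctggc
Cdc20: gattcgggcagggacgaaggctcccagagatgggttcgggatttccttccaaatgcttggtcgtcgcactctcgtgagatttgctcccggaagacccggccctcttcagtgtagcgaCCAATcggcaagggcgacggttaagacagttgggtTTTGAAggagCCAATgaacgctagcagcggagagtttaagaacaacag
Ube2c: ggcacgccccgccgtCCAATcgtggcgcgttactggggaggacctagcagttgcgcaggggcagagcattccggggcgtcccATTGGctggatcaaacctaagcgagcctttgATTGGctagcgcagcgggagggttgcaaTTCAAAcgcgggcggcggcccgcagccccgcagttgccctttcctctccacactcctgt
The 2 replication promoters are those of Mcm3 (chr1:20820283-20820482, minus strand) and Mcm5 (chr8:75109339-75109538, plus strand), subunits of the replicative helicase. Every promoter shown, of both lists, was picked because its window held the marked motifs, so its matches say nothing about the rest of the list. Capitals there mark 1 of 2 E2F forms, TTTCCCGC or TTTGGCGC, again on either strand.
Mcm3: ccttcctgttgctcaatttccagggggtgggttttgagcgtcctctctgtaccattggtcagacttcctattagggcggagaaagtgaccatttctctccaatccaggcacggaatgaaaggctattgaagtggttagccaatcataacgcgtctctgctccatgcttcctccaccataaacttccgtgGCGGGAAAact
Mcm5: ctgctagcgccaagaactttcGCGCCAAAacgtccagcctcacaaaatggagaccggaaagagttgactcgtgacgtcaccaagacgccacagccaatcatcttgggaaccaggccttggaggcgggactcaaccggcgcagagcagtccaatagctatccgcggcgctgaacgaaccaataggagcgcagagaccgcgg
Windows of 300 bases (250 before to 50 after the start) were found for 24 of the 28 genes of each list. Of the 26 windows of the mitosis list 20 (76.9%) held TTTGAA, against 17.9% of all 32851 windows, and 18 (69.2%) held both TTTGAA and CCAAT, against 6.95% of all. In the 29 windows of the replication list TTTGAA occurred in 3 (10.3%), while an E2F form occurred in 8 (27.6%), against 1.56% of all windows and 0 of 26 in the mitosis list. A TTTGAA and a CCAAT match can share no more than an end base. A match describes the sequence only, and binding was not measured. Cenpa fell from 131, 137 and 133 to 28.1, 24.7 and 32.3 TPM, Cdc20 from 139, 154 and 147 to 29.8, 30.7 and 37.7 TPM and Ube2c from 237, 253 and 247 to 56.3, 51.1 and 61.8 TPM, with log2 fold changes of -2.42, -2.32 and -2.29. Mcm3, from the other set, fell from 135, 136 and 129 to 24.4, 24.1 and 28.7 TPM (-2.53).

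Floor plate genes rose. Shh (chr5:28456815-28467256, minus strand, GRCm38), the Hedgehog ligand that floor plate cells secrete, measured 88.9, 97.6 and 83.7 TPM at day 3 and 324, 335 and 301 TPM at day 7 (log2 fold change 1.66 ± 0.09, adjusted p = 4.61e-18). Foxa2, the forkhead factor that specifies floor plate, measured 63.3, 69.8 and 62.5 TPM and then 159.8, 166 and 152 TPM (log2 fold change 1.00 ± 0.09, adjusted p = 7.27e-12). In both cases the lowest day 7 library was above the highest day 3 library, by a wider margin for Shh. Of 15 floor plate genes 12 rose and 3 fell, with a median of 1.90, and their summed level went from 1491 to 1540 TPM at day 3 to 4039 to 4404 TPM at day 7. Foxa1, the sister of Foxa2, rose from 9.81 ± 1.49 to 87.9 ± 9.95 TPM (3.01), Sulf1, an extracellular sulfatase that edits heparan sulfate, from 56.4 ± 4.05 to 480.0 ± 33.5 TPM (2.97), and Ferd3l, a bHLH factor of the floor plate, from 4.05 ± 0.528 to 46.9 ± 3.32 TPM (3.36). Corin, a membrane serine protease of midline cells, went from 0.293 ± 0.114 to 8.41 ± 1.53 TPM (4.86). Shh was highest at day 6 on average, at 410.0 TPM.

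V3 interneurons arise beside the floor plate, and 5 of their 6 listed genes rose, Nkx2-9 being the exception. Sim1 (chr10:50894754-50989152, plus strand, GRCm38), the bHLH-PAS factor that identifies V3 neurons, measured 1.62, 1.34 and 1.37 TPM at day 3 and 42.6, 40.0 and 42.1 TPM at day 7 (log2 fold change 4.86 ± 0.13, adjusted p = 2.43e-26). Uncx, a homeobox factor made in these neurons, rose from 2.2 ± 0.408 to 32.6 ± 1.99 TPM (3.70). Every day 7 library held far more Sim1 than any day 3 library. Genes of other spinal interneuron classes were mostly at low levels on both days. Of 28 listed 23 were tested, of which 10 fell and 5 rose, and the median of -0.79 became 0.00 with genes at 0 counts set to their bound, so no direction can be given for that list. Among serotonin and catecholamine genes, 6 of 11 fell and 5 rose: Dbh and Ddc, enzymes of monoamine synthesis, fell from 8.72 ± 3 and 74.5 ± 8.66 TPM to 0.0633 ± 0.0513 and 4.21 ± 0.119 TPM, and Fev, the serotonin neuron factor Pet1, rose from 0.127 ± 0.0503 to 3.13 ± 0.788 TPM (4.72).

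Glial genes made up some of the largest rises. All 4 NFI genes rose, with a median of 3.66. Nfia (chr4:97772734-98118874, plus strand, GRCm38), the member that starts gliogenesis in the spinal cord, measured 7.55, 7.53 and 7.33 TPM at day 3 and 96.3, 98.5 and 92.5 TPM at day 7 (log2 fold change 3.57 ± 0.06, adjusted p = 7.91e-31). Nfib measured 1.92, 2.09 and 1.93 TPM and then 32.6, 32.5 and 29.8 TPM (log2 fold change 3.74 ± 0.12, adjusted p = 2.17e-24), and Nfix rose from 2.24 ± 1.1 to 39.9 ± 1.05 TPM (4.38). Nfic rose least of the 4, from 9.46 ± 0.251 to 28.4 ± 1.55 TPM (1.31). No day 7 value of Nfia or Nfib was within 10 times the day 3 values. Nfia was at 36.4 TPM at day 5 and 83.6 TPM at day 6.

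Of 32 astroglial and radial glial genes 29 rose and 2 fell, with a median of 2.50, and their summed level went from between 1346 and 1426 TPM to between 5402 and 5618 TPM. Slc1a3 (chr15:8634124-8710764, minus strand, GRCm38), the glial glutamate transporter GLAST, measured 8.44, 7.68 and 8.55 TPM at day 3 and 109.6, 115 and 104 TPM at day 7 (log2 fold change 3.58 ± 0.05, adjusted p = 1.04e-32). Fabp7, the brain lipid-binding protein of radial glia, was already abundant, at 678, 618 and 683 TPM, and reached 3268, 3111 and 3186 TPM (log2 fold change 2.10 ± 0.06, adjusted p = 3.88e-26), which makes it the main part of the list's sum. Sox9, the SRY-box factor of the gliogenic switch, measured 40.5, 33.8 and 40.8 TPM and then 83, 83.5 and 85.7 TPM (log2 fold change 0.96 ± 0.08, adjusted p = 3.38e-12), a smaller change than that of the NFI genes. Aldh1l1, a folate enzyme of astrocytes, rose from 3.43 ± 0.223 to 87.4 ± 3.04 TPM (4.66), Hopx, a homeodomain-only protein of radial glia, from 0.877 ± 0.182 to 24.8 ± 0.992 TPM (4.67), and Mlc1, a membrane protein of astrocyte end-feet, from 0.233 ± 0.0321 to 10.5 ± 0.413 TPM (5.30). S100b, a calcium-binding protein of glia, was at 0 counts in all 3 libraries of day 3, and against 3 counts per library it was at least 15.4-fold higher at day 7, while Gpc5, a heparan sulfate proteoglycan, had 1 to 3 counts at day 3 and a ratio of 144 (39.5 to 1193). Gfap, the filament protein of mature astrocytes, did not pass the test and was near the detection limit, at 0.123 ± 0.11 TPM at day 7.

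Of 23 oligodendrocyte lineage genes 20 rose and 2 fell, with a median of 2.11. Sox10 (chr15:79154908-79165240, minus strand, GRCm38), the SRY-box factor that specifies the lineage, measured 0.11, 0.07 and 0.18 TPM at day 3 and 29.1, 27.2 and 29.2 TPM at day 7 (log2 fold change 7.69 ± 0.30, adjusted p = 1.63e-21). Pdgfra, the growth factor receptor of oligodendrocyte precursors, measured 2.15, 2.51 and 1.65 TPM and then 12.4, 10.2 and 10.3 TPM (log2 fold change 2.11 ± 0.14, adjusted p = 1.21e-15). Sox10 was close to 0 in all day 3 libraries and still at 0.873 TPM at day 5, so most of its final level was reached between day 5 and day 7 (log2 fold change 4.94 in that interval). Gpr17, a receptor of committed precursors, rose from 0.447 ± 0.131 to 30.2 ± 1.44 TPM (5.87), Bcas1, a marker of newly forming oligodendrocytes, from 0.1 ± 0.121 to 12.6 ± 0.323 TPM (7.26), and Cldn11, a tight junction protein of myelin, from 0.0433 ± 0.0751 to 3.98 ± 0.303 TPM (6.20). Mobp was assigned 5.72 ± 0.941 TPM at day 3 and 0.0867 ± 0.0723 TPM at day 7 (-6.36), but it shares exon sequence with a predicted gene on the same strand, so this value is uncertain. Sox10 also belongs to neural crest, whose list had 6 rises and 1 fall among 12 tested genes. There Tfap2a, Erbb3 and Dct, which mark crest, Schwann cells and melanocytes, did not pass and were at or below 0.5 TPM on average at day 7. They do not stand for the list, whose summed level went from 199 to 214 TPM at day 3 to 268 to 285 TPM at day 7. Within that sum Cdh6 alone rose from 51 ± 1.75 to 112 ± 7.36 TPM, and Sox10 is also part of it. The sum is therefore not read as a rise of neural crest.

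Most pan-neuronal genes rose, but the tubulin and neurofilament genes of young neurons did not. Tubb3 (chr8:123411424-123422015, plus strand, GRCm38), the neuronal beta-tubulin, measured 935, 989 and 933 TPM at day 3 and 1101, 1092 and 1170.2 TPM at day 7 and did not pass the test (log2 fold change 0.07 ± 0.06, adjusted p = 0.359), but limma called it on the log2(TPM + 1) scale (0.23, adjusted p = 0.00458). Nefl, the light neurofilament chain, fell from 448, 501 and 439 to 385, 369.6 and 375 TPM (log2 fold change -0.47 ± 0.07, adjusted p = 3.2e-07) after a peak mean of 716 TPM at day 4, and Nefm, the medium chain, fell from 165 ± 18.4 to 32.9 ± 1.71 TPM (-2.49). These 2 chains are abundant in motor neurons. Mapt, the microtubule-associated protein tau, rose from 58.8 ± 2.28 to 299 ± 11 TPM (2.24), Eno2, neuron-specific enolase, from 7.91 ± 0.898 to 48.2 ± 1.43 TPM (2.64), and Myt1l, a zinc finger repressor of non-neuronal genes, from 3.32 ± 0.332 to 29.4 ± 2.11 TPM (2.94). Of the 30 pan-neuronal genes 20 rose and 7 fell (median 0.71).

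Synaptic and excitability genes moved further. Syt1 (chr10:108497650-109010982, minus strand, GRCm38), the calcium sensor of vesicle release, measured 7.39, 8.06 and 7.21 TPM at day 3 and 65, 65.7 and 62.8 TPM at day 7 (log2 fold change 2.93 ± 0.07, adjusted p = 9.18e-28). Snap25, a SNARE protein of the presynaptic membrane, measured 35.8, 33.8 and 29.3 TPM and then 72.2, 74.8 and 68.3 TPM (log2 fold change 1.27 ± 0.10, adjusted p = 6.82e-14). The 2 days were well apart for both genes, and Syt1 rose more than Snap25. Of 30 synaptic vesicle and active zone genes 27 rose and 2 fell (median 1.72), with Rph3a, a Rab3 effector, at 0.447 ± 0.0681 and 19 ± 1.8 TPM (5.25) and Sv2b, a vesicle glycoprotein, at 0.5 ± 0.0529 and 12 ± 1.1 TPM (4.44). On the log2(TPM + 1) scale none of these 30 was called lower.

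Of 30 ionotropic receptor genes 25 rose and 4 fell (median 2.56). Gria1, an AMPA receptor subunit, measured 0.17, 0.41 and 0.12 TPM at day 3 and 24.3, 21.6 and 22.8 TPM at day 7 (log2 fold change 7.31 ± 0.18, adjusted p = 1.03e-26). The NMDA receptor subunit Grin2b rose from 0.127 ± 0.0208 to 3.3 ± 0.0321 TPM (5.84), the GABA-A receptor subunit Gabra2 from 0.463 ± 0.239 to 14.2 ± 0.27 TPM (5.26) and the glycine receptor subunit Glra2 from 0.297 ± 0.127 to 12.6 ± 1.14 TPM (5.21). Each of these started below 1 TPM at day 3. Of 33 voltage-gated channel genes 29 rose and 2 fell (median 1.73). Scn3b, an auxiliary sodium channel subunit, reached the highest level of the named channels, from 13.7 ± 1.32 to 140.0 ± 2.83 TPM (3.22), and the potassium channel genes Kcnd2 and Kcnq3 rose from 0.08 ± 0.0458 and 0.22 ± 0.135 TPM to 5.1 ± 0.311 and 5.64 ± 1.01 TPM. Scn8a and Scn9a, sodium channel alpha subunits, did not pass (-0.08 and 0.12), though on the log2(TPM + 1) scale limma called Scn8a lower (-0.54, adjusted p = 9.72e-06) and Scn9a higher (0.26, adjusted p = 0.039).

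Transmitter genes rose for both excitatory and inhibitory chemistry. Slc17a6, the vesicular glutamate transporter VGLUT2 of spinal excitatory neurons, measured 0.1, 0.18 and 0.11 TPM at day 3 and 17, 17.8 and 17.3 TPM at day 7 (log2 fold change 6.88 ± 0.23, adjusted p = 2.35e-19). Slc32a1, the vesicular transporter of GABA and glycine, was low on both days, at 0.27 ± 0.0954 and 1.43 ± 0.111 TPM (2.23). The glutamate transporter thus ended well above the inhibitory one. Slc6a11, a GABA uptake transporter that astrocytes also use, rose from 0.99 ± 0.229 to 32.1 ± 0.835 TPM. In all, 8 of 11 genes of this group rose and 1 fell. Of 26 neuropeptide genes 20 passed the filter, of which 11 rose and 6 fell, and the most abundant at day 3, Sst (somatostatin), fell from 153, 143 and 152 to 2.9, 1.59 and 2.43 TPM (log2 fold change -6.18 ± 0.17, adjusted p = 5.86e-26), while Tac1, the substance P precursor, rose from 0.1 ± 0.0458 to 2.06 ± 0.266 TPM (3.94). Because of Sst the summed level of the peptide genes went down, from 225 to 232 TPM at day 3 to 116 to 120 TPM at day 7, although more members rose than fell.

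Among 33 axon guidance genes 22 rose and 9 fell (median 0.82). Robo3, a receptor that lets commissural axons cross the floor plate, measured 0.34, 0.74 and 0.38 TPM at day 3 and 95.3, 109 and 97.3 TPM at day 7 (log2 fold change 7.76 ± 0.14, adjusted p = 1.96e-30). Dcc, the netrin receptor of the same axons, rose from 6.69 ± 0.779 to 47.3 ± 1.65 TPM (2.65), and Efnb3, an ephrin of the midline, from 57.9 ± 2.22 to 313 ± 23.8 TPM (2.26). Robo3 was below 1 TPM in all day 3 libraries and at 95.3 TPM or more in all day 7 libraries. Sema3d, a secreted semaphorin, fell from 20.2 ± 0.962 to 1.29 ± 0.389 TPM (-4.05). Of 22 clustered protocadherin gamma genes, whose products give neurons surface identities, 21 rose (median 1.06), Pcdhgc3 from 50.6 ± 1.92 to 127 ± 4.25 TPM. These genes share their last exons, so the division of reads among them is uncertain and they do not count as separate measurements.

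Genes that mark early-born and late-born spinal neurons changed in level, but birth order was not measured. Spinal neurons born early express Onecut factors and those born later express NFI, Neurod2 and Neurod6. All 3 Onecut genes fell (median -2.40): Onecut2 measured 11.3, 13.3 and 11.4 TPM at day 3 and 2.48, 2.65 and 2.13 TPM at day 7 (log2 fold change -2.48 ± 0.11, adjusted p = 9.08e-20), and Onecut1 went from 25.8 ± 0.668 to 5.43 ± 0.431 TPM, but Onecut1 shares exon sequence with a predicted gene and is uncertain. Of 12 other late temporal genes 9 rose and 3 fell (median 0.77). Neurod2 reached 13.3, 14.9 and 13.4 TPM at day 7 from 0.02 ± 0.02 TPM, Neurod6, at 0 counts on day 3, reached 5.26, 4.39 and 4.83 TPM (called by edgeR, but with an adjusted p of 0.22 in DESeq2), and Bcl11a, a zinc finger factor of dorsal and cortical neurons, rose from 2.2 ± 0.108 to 38.1 ± 0.686 TPM (3.92).

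Hox genes record position along the body axis. All 11 genes of paralogue groups 5 to 8, which cover brachial and thoracic levels, rose (median 0.82). Of 12 genes of groups 1 to 4, which reach into the hindbrain, 6 fell and 4 rose (median -0.32). The summed level of groups 1 to 4 went up, from 628 to 661 TPM at day 3 to 717 to 738 TPM at day 7. No shared direction is therefore read for groups 1 to 4. Hoxc8 (chr15:102990607-102994111, plus strand, GRCm38) measured 3.9, 4.17 and 3.41 TPM at day 3 and 18.4, 20.4 and 16.1 TPM at day 7 (log2 fold change 2.08 ± 0.20, adjusted p = 2.12e-11). Hoxa6 rose from 5.03 ± 1.65 to 66 ± 2.07 TPM (3.53), Hoxa5 from 56.6 ± 1.28 to 210.0 ± 9.68 TPM (1.73) and Hoxc6 from 49.3 ± 5.12 to 149 ± 7.69 TPM (1.41). At the anterior end Hoxb1 fell from 4.69 ± 0.452 to 0.653 ± 0.105 TPM (-3.18). Of the 16 genes of groups 9 to 13 only 7 passed the filter on low counts, and Hoxb9, at 86.9 ± 13.5 and then 179 ± 12.5 TPM (0.87), was the one at an appreciable level, so no count over this group is read.

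The Hedgehog targets Ptch1, Gli1 and Hhip went down although the agonist was present on both days, while retinoic acid genes moved in both directions. Of 13 Hedgehog pathway genes, not all of which are targets, 11 fell and 2 rose (median -1.00). Ptch1 (chr13:63508328-63573598, minus strand, GRCm38), the Hedgehog receptor and a target of the pathway, measured 199, 201 and 205 TPM at day 3 and 121, 116 and 112 TPM at day 7 (log2 fold change -1.00 ± 0.04, adjusted p = 3.54e-20). Gli1, a transcription factor that the pathway induces, fell from 22, 22.8 and 25.8 to 4.72, 3.76 and 4.93 TPM (log2 fold change -2.51 ± 0.11, adjusted p = 3.68e-20). The days were separate for both, with the steeper fall in Gli1, in the same libraries in which the ligand gene Shh rose. Hhip, a target that binds the ligand, went from 6.47 ± 0.149 to 2.53 ± 0.493 TPM (-1.42). The 2 rises were small, and without some libraries or with the replicate number as a block only 1 was called.

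Of 17 retinoic acid pathway genes 10 fell and 4 rose (median -0.28). Crabp2 and Crabp1, proteins that carry retinoic acid inside cells, fell most: Crabp2 measured 659, 650.2 and 657 TPM at day 3 and 39.7, 34.3 and 33.3 TPM at day 7 (log2 fold change -4.36 ± 0.07, adjusted p = 1.88e-32), and Crabp1 went from 503 ± 17.1 to 50.6 ± 6.16 TPM (-3.48). At day 3 Crabp1 and Crabp2 accounted for most of the list's summed level, which was 1479 to 1490.0 TPM. At day 7 the sum was 471 to 497 TPM, and Crabp1 and Crabp2 were a minor part of it. The degrading enzymes Cyp26a1 and Cyp26b1, the first a direct target of the receptors, did not pass (-0.28 and 0.03). Cyp26a1 was called lower without day 3 replicate 2 (-0.38, adjusted p = 0.0406 in edgeR) and without day 7 replicate 1 (-0.45, adjusted p = 0.0167). Dhrs3, a reductase that lowers retinaldehyde, rose from 8.07 ± 0.907 to 74.4 ± 0.705 TPM (3.07).

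Other signals were mixed. Of 21 Wnt pathway genes 9 rose and 6 fell (median 0.35), with the ligands Wnt4 and Wnt7b up from 6.73 ± 0.359 and 2.72 ± 0.18 TPM to 47.1 ± 3.92 and 18.7 ± 0.372 TPM, and Sp8, a zinc finger target of Wnt and Fgf signals, down from 12.7, 10.4 and 14.2 to 0.13, 0.17 and 0.24 TPM (-6.50). The Wnt-responsive factors Lef1 and Tcf7 fell (-1.49 and -1.86). In the Fgf list 9 of 18 fell and 4 rose (median -0.16), among them Etv4, a target of the receptors, which fell from 12.8 ± 0.231 to 2.45 ± 0.712 TPM (-2.34), and the receptor Fgfr3, a gene of glial progenitors, which rose from 88.5 ± 3.46 to 194 ± 23.4 TPM (0.93). Of 19 BMP pathway and Id genes 14 rose and 4 fell (median 0.97). Within the Id family of helix-loop-helix inhibitors, Id1 fell from 65.9 ± 5.83 to 8.31 ± 1.42 TPM (-3.16) while Id4 rose from 9 ± 0.617 to 84.9 ± 2.09 TPM (3.06), and Bmper, a secreted BMP regulator, rose from 0.61 ± 0.348 to 17.3 ± 2.23 TPM (4.93).

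**Figure D4:**
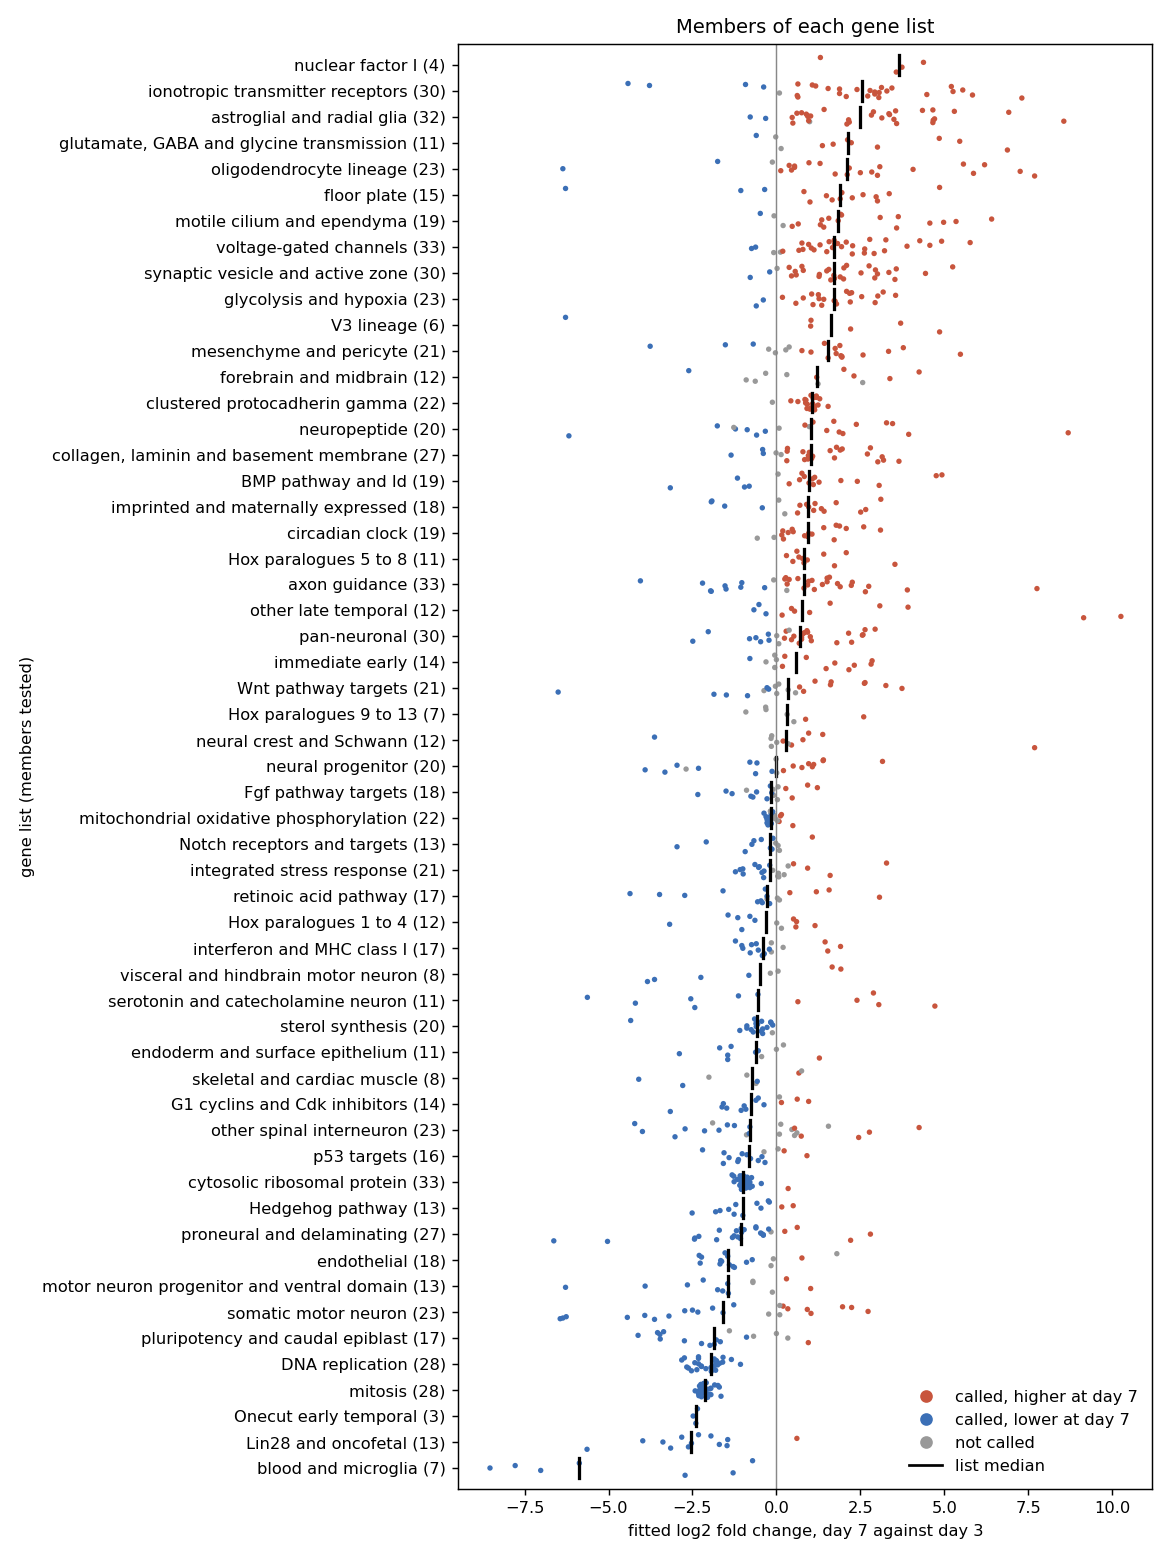
Fitted log2 fold change of every tested member (points, horizontal axis) of 55 gene lists (vertical axis, with the number of members tested), ordered by list median (black bar), with red for called higher at day 7, blue for called lower and grey for not called. Mitosis and replication members form tight groups around their medians of -2.14 and -1.94, while lists such as somatic motor neuron and neuropeptide spread over both directions.

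Lin28a and the genes that accompany it in immature cells fell. Lin28a (chr4:134003330-134018841, minus strand, GRCm38), an RNA-binding protein that blocks maturation of let-7 microRNAs, measured 64.9, 66.6 and 61.7 TPM at day 3 and 1.79, 1.33 and 1.14 TPM at day 7 (log2 fold change -5.64 ± 0.07, adjusted p = 1.26e-33). Its paralogue Lin28b fell from 32.5 ± 1.98 to 4.45 ± 0.336 TPM (-3.15), and the known let-7 targets Hmga2, Igf2bp1 and Trim71 fell from 110.0 ± 4.33, 167 ± 6.3 and 19.6 ± 0.255 TPM to 11.9 ± 1.14, 37.5 ± 0.772 and 1.4 ± 0.0513 TPM. Of the 13 genes of this list 12 fell, all by at least 2-fold, and 1 rose (median -2.53). Among 18 imprinted genes 12 rose and 4 fell (median 0.93): Meg3, a maternally expressed long noncoding RNA, measured 250.3, 289 and 287 TPM at day 3 and 1132, 1349.6 and 1207 TPM at day 7 (log2 fold change 2.51 ± 0.17, adjusted p = 3.8e-15). Its paternally expressed neighbour Dlk1 rose from 29.5 ± 2.85 to 205 ± 5.95 TPM (2.66), whereas Mest fell from 718 ± 26.9 to 214 ± 8.54 TPM (-1.92). Pluripotency and caudal epiblast genes were low at day 3 already and 12 of 17 fell, Pou5f1 from 4.14 ± 0.425 to 1.33 ± 1.24 TPM (-1.98).

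Glycolysis and hypoxia genes rose together. Of 23 tested 21 rose and 2 fell (median 1.72). Bnip3, a mitophagy receptor induced in low oxygen, measured 17.6, 20.6 and 17.2 TPM at day 3 and 257, 249 and 198 TPM at day 7 (log2 fold change 3.55 ± 0.15, adjusted p = 1.28e-20). Ldha, lactate dehydrogenase A, measured 149, 157 and 140.4 TPM and then 1036, 1050.4 and 830.0 TPM (log2 fold change 2.54 ± 0.15, adjusted p = 7.35e-17). Replicate 3 was the lowest of the day 7 libraries for both genes, and it still lay above every day 3 library. Egln3, an oxygen-sensing prolyl hydroxylase that is itself induced in hypoxia, rose from 19.8 ± 0.75 to 202 ± 29.7 TPM (3.18), and Pdk1, which keeps pyruvate out of mitochondria, from 9.68 ± 0.574 to 66.2 ± 7.54 TPM (3.02). Culture density and oxygen were not given in the sources used here.

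Cytosolic ribosomal protein genes fell in 32 of 33 cases, with 1 rise and a median of -0.98, and their summed level went from between 59726 and 60082 TPM at day 3 to between 33201 and 34955 TPM at day 7. Rpsa, a protein of the small subunit, went from 2591 ± 23.1 to 1131 ± 39.4 TPM (-1.32), and Rplp0, of the large subunit stalk, from 1317 ± 12.8 to 627 ± 8.85 TPM (-1.26). Of 20 sterol synthesis genes 19 fell and none rose, but only 2 of them by 2-fold or more (median -0.58). Oxidative phosphorylation genes had no direction that held on both scales: 14 of 22 fell and 4 rose in the count fit (median -0.17), and 3 fell and 7 rose on the log2(TPM + 1) scale (median 0.01). Integrated stress response genes fell in 11 and rose in 4 of 21 cases (median -0.20), with the amino acid synthesis genes Psat1 and Asns lower (-1.22 and -0.99) and Ddit3 not called (0.04), though limma called it higher on the log2(TPM + 1) scale (0.22, adjusted p = 0.0492).

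Markers of cells other than neurons and glia were also present and changed between the days. At day 7 Col3a1 and Dcn stood above the glial genes Nfia and Slc1a3 in mean TPM but far below Fabp7, at 3188 ± 78.5 TPM. The astroglial and radial glial list summed to 5402 to 5618 TPM at day 7. Mesenchyme and pericyte genes took 69.8 to 111 TPM in sum at day 3 and 434 to 545 TPM at day 7, with 14 of 21 rising and 3 falling (median 1.54). Dcn, the proteoglycan decorin of fibroblasts, measured 3.01, 4.33 and 3.32 TPM at day 3 and 166, 194 and 172 TPM at day 7 (log2 fold change 5.48 ± 0.14, adjusted p = 1.07e-26). Col3a1, a fibrillar collagen, measured 53, 61.5 and 40.4 TPM and then 496, 527 and 464 TPM (log2 fold change 3.19 ± 0.10, adjusted p = 7.78e-24). Both were many times higher in every day 7 library. Col1a1 and Col1a2 rose likewise (3.02 and 3.65), 22 of 27 collagen and laminin genes rose and 3 fell, and Meox1, a gene of somites, fell from 5.96 ± 1.91 to 0.49 ± 0.202 TPM (-3.76). The part of mesenchymal cells in the rise of collagen genes was not tested.

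Of 18 endothelial genes 14 fell and 1 rose (median -1.43), from 187 to 212 TPM in sum to 93.8 to 105 TPM, with Tie1 and Sox18 down from 12.8 ± 0.985 and 15.1 ± 1.05 TPM to 3 ± 0.28 and 3.43 ± 0.405 TPM, and Kdr not called (-0.16), though edgeR called it lower in a fit of the 6 libraries alone (-0.16, adjusted p = 0.0336) and without the filter on low counts (-0.17, adjusted p = 0.0273). Blood genes were scarce: 7 of 18 passed the filter on low counts, so no count over the list is read, and the embryonic globins Hba-x, Hbb-bh1 and Hbb-y, at 0 counts in every day 7 library, were at least 16.5-, 9.81- and 5.79-fold lower there. The microglia genes Csf1r, Cx3cr1, Aif1 and Trem2 did not pass the filter. Of 14 muscle genes 8 were tested, and Myod1 and Myog were among those that did not pass the filter. Of 24 motile cilium genes, which ependymal and floor plate cells use, 19 passed the filter, of which 16 rose and 1 fell (median 1.84), and Foxj1, the forkhead factor of motile ciliogenesis, measured 2.98, 3.59 and 3.54 TPM at day 3 and 44.5, 48.2 and 42.9 TPM at day 7 (log2 fold change 3.58 ± 0.12, adjusted p = 2.43e-23). Dnah9 and Dnah11, dynein heavy chains of the axoneme, rose from 0.577 ± 0.15 and 0.0833 ± 0.0289 TPM to 15.3 ± 2.2 and 2.43 ± 0.481 TPM, but Ccno, which drives multiciliated cell formation, was at 0.123 ± 0.0814 and 0.16 ± 0.104 TPM and not called, and Mcidas, its upstream regulator, did not pass the filter.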

How the data were processed

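RNA of the 6 samples was quantified with RSEM against GRCm38 after demultiplexing with bcl2fastq 2.20.0, per the submitters' processing notes. Which aligner and annotation were used, and whether reads were counted by strand, is not given in the sources used here. The authors deposited expected counts per gene, which can hold fractions (6.87% of the values did), and a second table in TPM, scaled to transcript length and library total. Expected counts were rounded. Of 51912 gene IDs 51633 matched a symbol.

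All 36 libraries and 12 time points entered 1 model with TMM scaling (24 residual degrees of freedom) in edgeR 4.0.16 (filterByExpr, glmQLFit, glmQLFTest) in R 4.3.3, which tested 17990 of 32047 genes with at least 1 count. The standard error was approximated as the absolute log2 fold change over the root of its F value. No 2 replicates agreed within sampling noise. A gene at 0 counts on 1 day is given against 3 counts per library. A gene with 1 to 3 counts is given as a ratio with a 95% counting interval, which covers counting error only, since without molecular identifiers a read need not be a separate molecule. In data simulated for this comparison with 200 of 17990 genes changed, the recovered share was 62.7% at 1.5-fold, 73.1% at 2-fold and 92.4% at 4-fold, and false calls made up 6.17%. Far more genes were called in the real data than were changed in the simulation, so these shares need not hold for the real comparison.

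Named genes were a panel of 31, the 10 largest rises and 10 largest falls (called, days not overlapping, at least 10 CPM on the higher day, no predicted Gm or Rik gene), and from 55 gene lists up to 6 called members with the largest change and at least 1 TPM, plus members that did not pass. Mcm5 and genes that were not tested fall outside this rule and were chosen after values were seen, some named members were left out for length, and some genes, 1 of the panel among them, are not reported here. The members of the comparison and the lists were chosen with earlier results of these data known. Coordinates follow GENCODE M21 (GRCm38, first base 1), and promoter windows are from RefSeq on GRCm38.p6.

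By these exons Aldh1l1, Mobp, Notch2, Onecut1 and Pcdhgc3 overlap a further gene of their own strand and are uncertain. Equally uncertain, for exons that overlap an opposite-strand gene, are Arntl, Bcas1, Bcl11a, Bhlhe40, Bnip3, Cbfa2t3, Ccnd1, Cdc20, Cdkn1a, Cldn3, Corin, Ddit3, Dll1, Dlx1, Dnah11, Dnah9, Ferd3l, Fgfr3, Fhad1, Gli1, Gpc5, Gpr17, Grin2b, Grm7, Hes5, Hmga2, Hopx, Id4, Igf2bp1, Irf1, Irx3, Lef1, Lhx3, Lin28a, Meg3, Mest, Myt1l, Nefl, Nefm, Neurog3, Nfia, Nfic, Nfix, Nkx2-2, Notch1, Nrarp, Olig1, Orc1, Pdgfra, Phox2a, Pou5f1, Scn9a, Shh, Slc32a1, Sv2b, Trim71, Ube2c and Wnt7b.

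Tried besides were DESeq2 1.42.0, median-of-ratios scaling, the 6 libraries alone, all genes without the low-count filter, each library of the 2 days left out in turn, a block for the replicate number, and limma 3.58.1 on log2-transformed TPM with 1 or 0.1 added. Comparisons of day 5 with day 3 and of day 7 with day 5 come from the same model.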

Additional observations from a re-analysis of the deposited data

How the results depend on the processing

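The count of called genes stayed between 12377 and 13149 under the alternatives run, and leaving out 1 replicate gave 12519 to 12569 called genes and 4813 to 4899 with at least a 2-fold change. On the log2(TPM + 1) scale at least 2-fold calls dropped to 3081, of them 884 lower. The added 1 shrinks changes of low genes by construction. With 0.1 added there were 3211 such rises and 1387 such falls, against 2974 and 1898 in the count fit. The median log2 fold change of all genes tested was 0.14 with 0.1 added and -0.01 in the count fit. The share of shrinkage and of this shift in the drop was not tested. Replicate numbers did not pair the samples: deviations of same-numbered libraries correlated at 0.01, -0.03 and 0.03, and other pairs at -0.05 to 0.04. With the replicate block 12975 genes were called, 12923 of them shared with the fit without it. DESeq2 called 12744, 12715 of them shared, with 1 adjusted p not given.

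Of 2416 values of named genes other than Cdh6 under the alternatives, 16 changed sign, all of genes near 0 that were not called, 1 call was lost (Neurod6) and 17 values of genes that were not called became calls. These were of Sox2, Tubb3, Hey1, Scn8a, Scn9a and Ddit3 on a TPM scale, of Cyp26a1 with 1 library left out, of Kdr with the 6 libraries alone or no filter, and of Lhx1 with the 6 libraries alone (edgeR adjusted p = 0.0418), with the replicate block (0.0297) or without day 3 replicate 2. With 1 replicate left out the log2 fold change ran from -0.43 to 0.54 for Ccno, -0.01 to 0.08 for Cyp26b1, -0.04 to 0.08 for Ddit3, -0.17 to 0.10 for Erbb3, -0.06 to 0.24 for Mme, -0.03 to 0.21 for Slc5a7 and -0.01 to 0.03 for Sox2. On both TPM scales Kdr was at 0.00, Olig1 at 0.05 and Per1 at 0.03. The cause was not tested. Of 1430 counts in gene lists 35 moved by over 1.5 times, mostly on the TPM scales. There the fallen neural progenitor genes went from 8 to 5 (plus 1 only), neuropeptide genes from 6 to 3, collagen and laminin genes from 3 to 1, and risen Notch genes from 1 to 2. Depth limits the globin, S100b and Neurod6 values, which rest on few counts on 1 day, and those of Gfap, which had few counts on both.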

Other observations

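Clock genes shifted upward as a group. Of 19 tested circadian clock genes 17 rose and 0 fell (median log2 fold change 0.93), and Npas2 and Per1 did not pass the test (-0.57 and -0.07). Arntl, which encodes the core clock activator BMAL1, measured 4.5, 5.31 and 4.63 TPM at day 3 and 17.9, 18.8 and 17.2 TPM at day 7 (log2 fold change 1.72 ± 0.10, adjusted p = 2.85e-17). Bhlhe40, a clock repressor that low oxygen also induces, rose from 6.38 ± 0.687 to 41.2 ± 4.52 TPM (2.60), and Hlf, a clock output factor of the PAR bZIP family, from 1.12 ± 0.555 to 6.01 ± 0.675 TPM (3.10). The hour of harvest was not given in the sources used here. Of 14 immediate early genes 9 rose and 1 fell (median 0.57): Egr1 rose from 5.58 ± 0.462 to 31.3 ± 4.2 TPM (2.32) and Fos from 1.81 ± 0.127 to 8.99 ± 1.18 TPM (2.16). Interferon and MHC class I genes fell in 11 and rose in 3 of 17 tested cases (median -0.39), with Irf1 down from 6.73 ± 1.06 to 4.05 ± 0.411 TPM (-1.00) and Ifi27 up from 1.2 ± 0.392 to 5.29 ± 0.91 TPM (1.91). Forebrain and midbrain regulators stayed low, with a summed level of 2.63 to 3.85 TPM at day 3 and 6.48 to 7.47 TPM at day 7, and Dlx1, also a gene of inhibitory interneurons, was the largest called rise among those named, from 0.343 ± 0.235 to 1.95 ± 0.0723 TPM (3.38).

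The share of genes called higher at day 7 went up with the length of the gene on the genome, introns included. Of 3714 protein-coding genes that span under 10 kb, 32.4% were higher and 39.1% lower at day 7, with a median log2 fold change of -0.07. Of 6924 genes of 10 to 50 kb 35.6% were higher, of 2170 genes of 50 to 100 kb 42.4%, of 1361 genes of 100 to 200 kb 52.2% and of 718 genes of 200 to 500 kb 63.0%. Of the 216 genes of at least 500 kb 78.7% were higher and 10.6% lower, with a median of 1.46. These classes were looked at after other results were known, genes are not replicates, and no test is given.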
